A study of Mus musculus with 27 samples.

Results

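Reads of 10 skeletal muscle genes were followed through all 27 RNA-seq libraries of mouse fetal brain. The genes were taken by symbol from the 55416 genes of the read count table, and each of the 10 symbols matched 1 gene. They are the myogenic regulators Myog and Myod1, the myosin heavy chains Myh3 and Myh8, the actins Acta1 and Actc1, the troponin subunits Tnnt3 and Tnnc1, the giant sarcomere protein Ttn, and the fast regulatory light chain Mylpf. The question was how much muscle RNA each dissected brain carried, by strain and by day.

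Whole brains of AKR/J, C57BL/6J or Cav1-null fetuses were dissected on gestational days d12, d15 and d17, with 3 libraries in each of the 9 groups. AKR/J is an inbred strain that develops leukemia, C57BL/6J is the inbred reference strain, and Cav1-null (B6.Cg-Cav1tm1Mls/J) is congenic to C57BL/6J and lacks Cav1, which encodes the caveolar protein caveolin-1. No agent was given, and pregnancies were timed by the vaginal plug, which was counted as day 1. Whether the fetuses of a group came from separate litters is not given in the sources used here, so that a p-value measures the spread between these samples. The AKR/J and Cav1-null mice were the short-lived strains of the study, and C57BL/6J was the long-lived one.

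Skeletal muscle of the trunk comes from the somites and that of the head from cranial mesoderm, and the brain itself forms none. Myod1 and Myog are transcription factors that commit muscle precursors and drive their fusion and differentiation through E-box sites in muscle genes. The contractile proteins are then made in developmental series, with embryonic and neonatal myosins and cardiac actin preceding the adult forms. In the fetus the muscles of the head and neck, the skull cartilage and the skin lie close to the brain.

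Levels are given as reads or as CPM, the reads of a gene divided by all reads counted on genes in that library and scaled to 1e+06. The libraries held 26363697 to 39759702 such reads. A gene with 0 reads could have had up to 3 by counting error, which is 0.0755 to 0.114 CPM at these depths. Cav1 was at 0 to 0.551 CPM in the 9 Cav1-null libraries and at 6.36 to 43.0 CPM in the other strains, which follows the strain labels. A list of 12 brain genes summed to 1975 to 7871 CPM over the 27 libraries. The 3 AKR/J d12 libraries stood apart, with 1975 to 2908 CPM of the brain genes (4487 CPM or more elsewhere), 35401 to 135959 CPM of erythroid genes and 22.9 to 495 CPM of placenta and decidua genes, as against at most 70.0 CPM of the latter in any other library.

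Sequences are shown for the starts of the muscle genes, because reads of Mylpf from different starts could be told apart by their splice junctions. Mylpf (ENSMUSG00000030672) lies on the plus strand at chr7:126807207-126813470 (GRCm39). Its shared exon starts right after base 126812032, and 3 upstream exons were joined to it in these libraries. The 30 bases across each of these joins, read from GRCm39, carry the last 15 bases of the upstream exon in lower case and the first 15 of the shared exon in capitals.
Mylpf join over chr7:126808124-126812032: acacaactgaagagaGCACCCAAGAAGGCC
Mylpf join over chr7:126808571-126812032: gagcctggagcatcgGCACCCAAGAAGGCC
Mylpf join over chr7:126810936-126812032: gagatctaagacatgGCACCCAAGAAGGCC
The last of these comes from the exon at which the RefSeq transcript of Mylpf starts. The 150 bases before that start, from the RefSeq promoter table (assembly GRCm38.p6) and found again at chr7:126810630-126810779 of GRCm39 on the plus strand, hold an E-box, in capitals, 51 bases before the start.
Mylpf promoter: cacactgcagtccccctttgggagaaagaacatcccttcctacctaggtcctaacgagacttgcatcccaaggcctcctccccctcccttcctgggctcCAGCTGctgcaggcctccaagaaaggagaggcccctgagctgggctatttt

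The RefSeq table held promoters of 8 of the 10 genes, all but Myod1 and Tnnt3. Their 250 bases before the start were searched for the E-box CAGCTG, the MEF2 site and the CArG box on both strands, and for TATAAA on the gene's strand. The E-box was present in Mylpf and Acta1 (2 of 8), and in 13.0% of the 32841 promoters searched. The MEF2 site was present in Ttn and Myh8 (2 of 8, 2.92% of all promoters), the CArG box in Acta1 and Actc1 (2 of 8, 1.47%), and TATAAA in Acta1 and Myh3 (2 of 8, 7.59%). No 2 of these matches overlapped. These 30-base windows show the CArG boxes and MEF2 sites, in capitals, 5′ to 3′ on the strand of each gene, with GRCm39 positions.
Acta1 CArG box, chr8:124621568-124621597: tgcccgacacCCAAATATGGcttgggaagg
Actc1 CArG box, chr2:113883384-113883413: gctaaggcgaCCAAATAAGGcaaggtggca
Ttn MEF2 site, chr2:76813038-76813067: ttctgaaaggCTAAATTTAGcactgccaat
Myh8 MEF2 site, chr11:67167841-67167870: ccttgtcaaaTTATTTATAGgagattggtt
These matches describe the sequence and were not measured as bound sites.

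The summed level of the 10 genes was high in 4 libraries, each of them 1 of the 3 in its group. AKR/J d15 replicate 2 had 160 CPM (4697 reads), C57BL/6J d15 replicate 1 had 76.5 CPM (3040 reads), Cav1-null d12 replicate 3 had 56.5 CPM (1911 reads) and Cav1-null d15 replicate 2 had 31.4 CPM (912 reads). The other 23 libraries lay between 8.25 and 21.7 CPM, with a median of 13.2 CPM. The 4 libraries were picked out by this sum, so that their high values for the members are a description. In bulk RNA, more muscle cells and more muscle RNA per cell cannot be told apart.

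The high level was thus never shared by the 3 libraries of a strain and day. The group means were 61.8 CPM ± 84.7 (SD, n = 3) in AKR/J d15, 33.8 ± 37.0 in C57BL/6J d15, 26.2 ± 26.3 in Cav1-null d12, 20.02 ± 2.52 in AKR/J d17 and 19.8 ± 10.1 in Cav1-null d15. Then came 17.5 ± 1.47 in Cav1-null d17, 15.6 ± 3.07 in C57BL/6J d17, 12.3 ± 3.25 in AKR/J d12 and 11.9 ± 3.37 in C57BL/6J d12. Neighbours in this order differed by less than the SD of at least 1 of the pair, except C57BL/6J d17 and AKR/J d12, which lay slightly further apart than either SD. In the 3 groups at the top the SD was larger than the mean, since the other libraries of AKR/J d15 had 13.2 and 12.5 CPM, those of C57BL/6J d15 12.4 and 12.4 CPM, and those of Cav1-null d12 11.3 and 10.7 CPM.

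**Figure D1:**
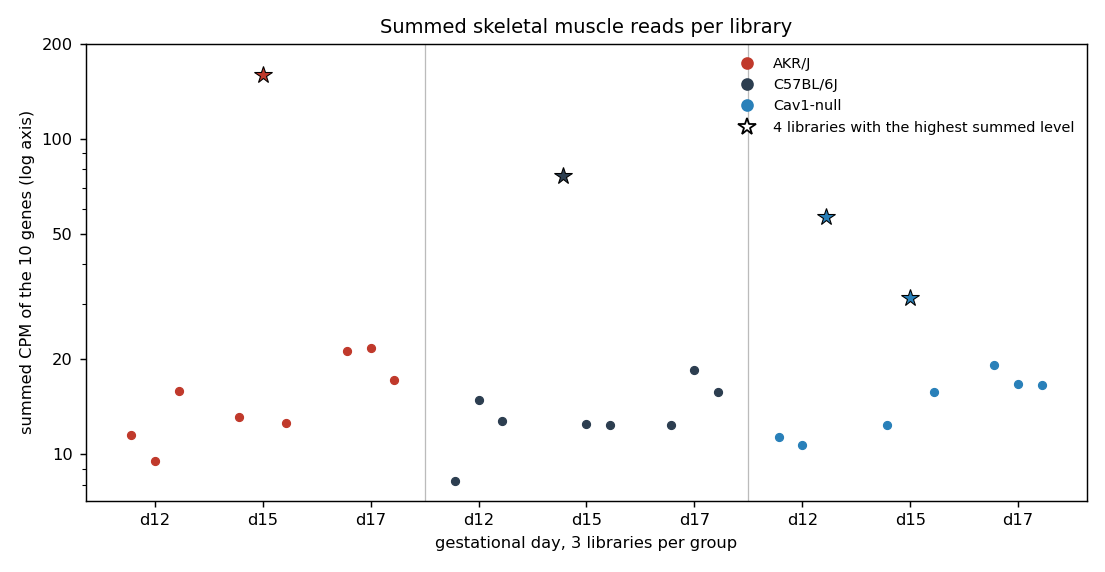
Summed CPM of the 10 skeletal muscle genes (log axis) in each of the 27 libraries, by strain (colour) and gestational day, each point 1 library. The 4 starred libraries lie at 31.4 to 160 CPM and the other 23 at 8.25 to 21.7 CPM.

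In each of the 4 libraries all 10 members were higher than in both other libraries of the same group, and 10 members in AKR/J d15 replicate 2, 9 in C57BL/6J d15 replicate 1, 10 in Cav1-null d12 replicate 3 and 7 in Cav1-null d15 replicate 2 were more than 2 times as high as in either. Over all genes at a mean of 1 CPM or more in the group, 4.80%, 1.61%, 6.61% and 0.408% were that high in these libraries. Of the other 23 libraries, none had more than 6 members as the highest of its group, or more than 3 at over 2 times both others.

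Myog and Myod1, the regulators, had few or no reads outside the 4 libraries. Myog (ENSMUSG00000026459, chr1:134217707-134220287) had 184 reads in AKR/J d15 replicate 2 and 0 in both other AKR/J d15 libraries, 50 reads in C57BL/6J d15 replicate 1 with 2 and 0 in the others, 149 reads in Cav1-null d12 replicate 3 with 8 and 0, and 18 reads in Cav1-null d15 replicate 2 with 0 and 6. Myod1 (ENSMUSG00000009471, chr7:46025870-46028526) had 64, 12, 42 and 9 reads in the same 4 libraries. In each of these groups both regulators were highest in the same library.

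In the other 23 libraries Myog had 0 to 16 reads, with 11 libraries at 0, and Myod1 had 0 to 8 reads, with 8 libraries at 0. The most Myog reads outside the 4 libraries were the 16 of C57BL/6J d12 replicate 2, or 0.457 CPM. Both regulators were below the count filter in all 12 comparisons, so that no fold change was tested for them there. Of the 51 member values between 1 and 10 reads, 39 were even (76.5%), compared with 60.6% over all genes. Whether both mates of a read pair were counted is not given in the sources used here, and such low counts may stand for fewer fragments than reads.

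Myh3 (ENSMUSG00000020908, chr11:66969126-66993117) encodes the embryonic myosin heavy chain, the first of the series in forming fibres. It was at 24.4 CPM in AKR/J d15 replicate 2 with 0.202 and 0.829 CPM in the others of the group, and at 17.6 CPM in C57BL/6J d15 replicate 1 with 1.16 and 0.968 CPM. It was at 4.70 CPM in Cav1-null d12 replicate 3 with 0.892 and 0.910 CPM, and at 3.27 CPM in Cav1-null d15 replicate 2 with 0.224 and 0.898 CPM. Outside the 4 libraries Myh3 ranged from 0.202 to 3.57 CPM, and its highest values, 3.57 and 1.97 CPM, were in C57BL/6J d12 replicates 2 and 3.

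Myh8 (ENSMUSG00000055775, chr11:67167746-67199462), the neonatal or perinatal myosin heavy chain, was at 0.0706 to 3.73 CPM outside the 4 libraries, a range close to that of Myh3. In AKR/J it was at 0.140, 0.0706 and 0.280 CPM on d12, at 1.51, 5.98 and 1.79 CPM on d15, and at 2.60, 1.97 and 2.53 CPM on d17. In C57BL/6J it was at 0.441, 3.14 and 0.655 CPM on d12, at 11.4, 3.73 and 3.01 CPM on d15, and at 2.01, 0.875 and 1.64 CPM on d17. In Cav1-null it was at 0.357, 0.121 and 3.88 CPM on d12, at 0.521, 1.44 and 0.611 CPM on d15, and at 1.25, 0.961 and 0.654 CPM on d17.
The AKR/J d12 and d15 values did not overlap, and neither did the d15 values of C57BL/6J and Cav1-null, with or without the high libraries.

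The actins differed from each other in their level outside the 4 libraries. Actc1 (ENSMUSG00000068614, chr2:113876266-113884043), cardiac alpha-actin, which embryonic skeletal muscle also makes, was at 18.6, 8.27, 6.57 and 3.09 CPM in the 4 libraries and at 0 to 1.26 CPM in the other 23. Of the contractile genes it had the highest ratio in each of the 4, at 74.3 times the mean of the other 2 libraries in AKR/J d15, 47.6 times in C57BL/6J d15, 17.7 times in Cav1-null d12 and 8.54 times in Cav1-null d15. Acta1 (ENSMUSG00000031972, chr8:124618501-124623661), skeletal alpha-actin, was at 12.1, 13.9, 4.38 and 3.33 CPM in the 4 libraries, but reached 4.63 CPM in the others.

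Of the troponins, Tnnt3 (ENSMUSG00000061723, chr7:142048605-142070280), the fast troponin T that anchors the complex to tropomyosin, was at 9.04, 3.12, 2.84 and 1.58 CPM in the 4 libraries and at 0.212 to 3.25 CPM in the others. Tnnc1 (ENSMUSG00000091898, chr14:30930232-30933708), the calcium-binding troponin C of slow and cardiac muscle, was at 6.59, 1.01, 3.91 and 2.03 CPM and at 0.559 to 1.62 CPM in the others. In C57BL/6J d15 replicate 1, Tnnc1 stayed within the range of the 23 libraries at 1.35 times the mean of the others of its group, whereas the other 8 members with a ratio there were at 2.96 to 47.6 times. Tnnc1 lies within Nisch and Tnnt3 overlaps Prr33, both on the opposite strand, and whether reads were counted by strand is not given in the sources used here.

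Ttn (ENSMUSG00000051747, chr2:76534136-76812891), the spring that spans the sarcomere from Z-disc to M-line, was at 40.6, 13.4, 13.6 and 8.90 CPM in the 4 libraries and at 1.18 to 9.82 CPM in the others. Mylpf was at 33.9, 6.14, 11.04 and 6.77 CPM, and at 0.505 to 8.04 CPM in the others. For Ttn, Mylpf, Acta1 and Tnnt3 the levels of a high library could thus lie within the range of libraries that had almost no Myog or Myod1.

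**Figure D2:**
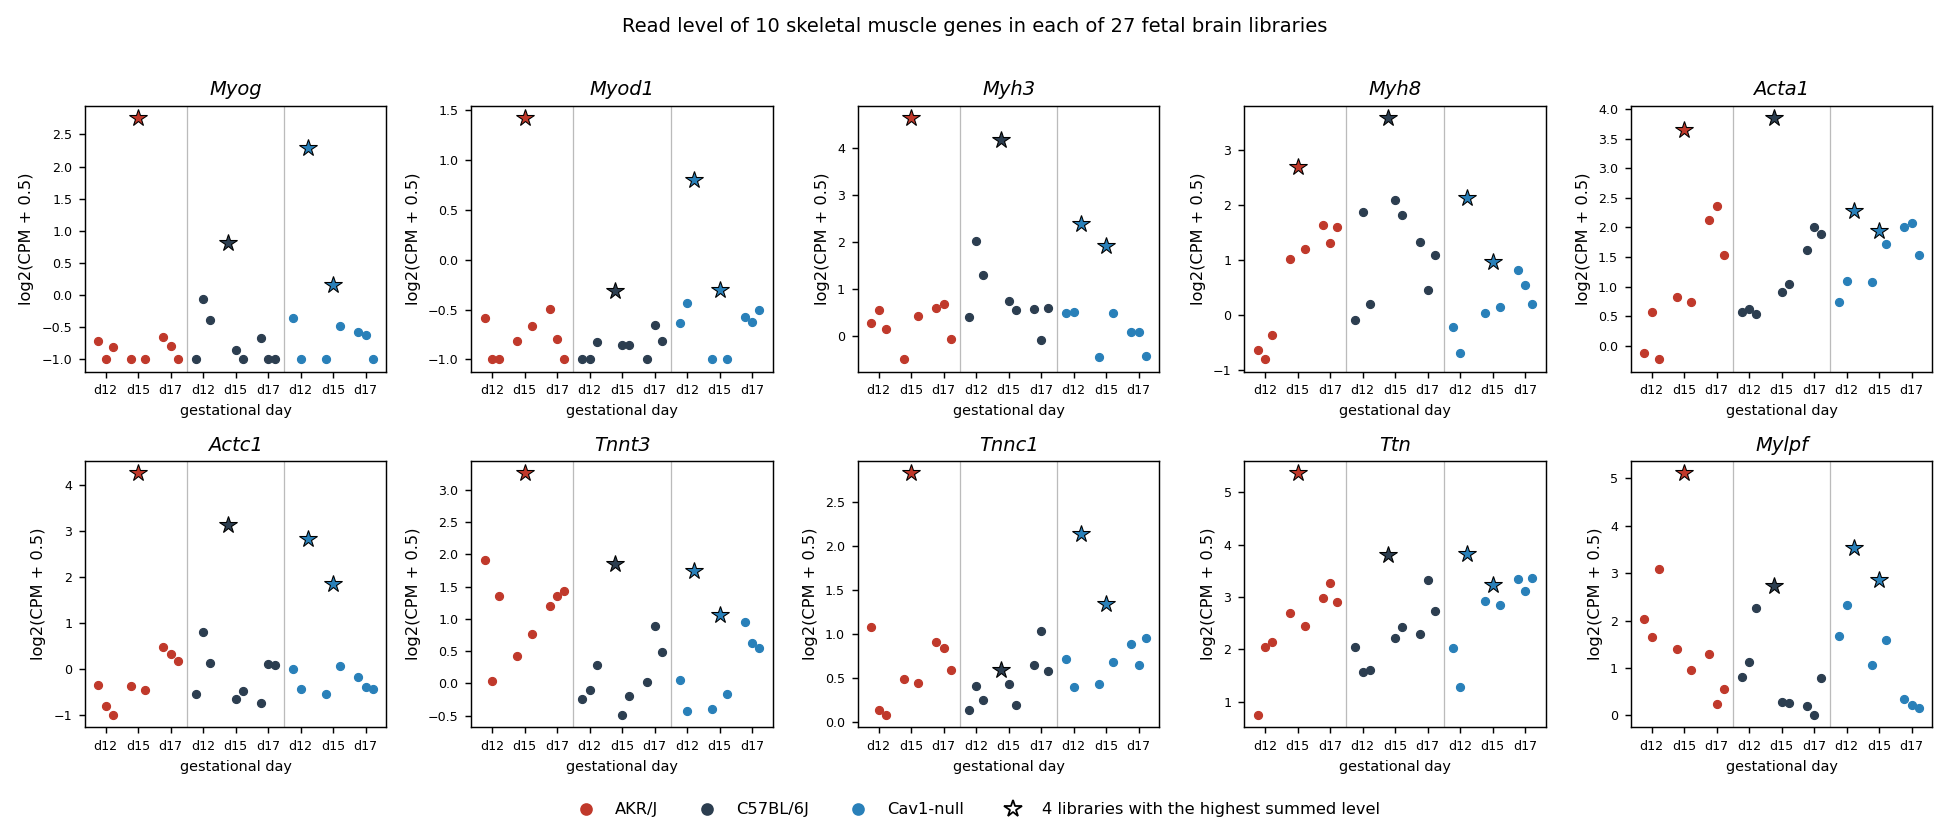
Level of each of the 10 genes, as log2(CPM + 0.5), in the 27 libraries by strain (colour) and gestational day, each point 1 library and each star 1 of the 4 libraries with the highest summed level. The regulators Myog and Myod1 are near the floor outside the stars, while Acta1 and Ttn are higher on d17 than on d12 in the other libraries of each strain.

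The makeup of the muscle reads differed between the 4 libraries. As CPM per kilobase of exon in the GENCODE M39 gene models, Mylpf was the highest member in each, at 27.8, 5.03, 9.05 and 5.56 in AKR/J d15 replicate 2, C57BL/6J d15 replicate 1, Cav1-null d12 replicate 3 and Cav1-null d15 replicate 2. Second on this per-length scale were Tnnc1 at 5.97, 3.54 and 1.84 in AKR/J d15 replicate 2, Cav1-null d12 replicate 3 and Cav1-null d15 replicate 2, and Acta1 at 3.75 in C57BL/6J d15 replicate 1. Myog was at 4.12, 0.830, 2.91 and 0.408 per kilobase. On this scale Myog was above Acta1 in AKR/J d15 replicate 2 and Cav1-null d12 replicate 3, where Acta1 had 3.25 and 1.18. It was below Acta1 in the other 2 libraries, where Acta1 had 3.75 and 0.898. The lengths join the exons of all transcripts of a gene (1516 bases for Myog, 1104 for Tnnc1, 3715 for Acta1 and 5792 for Actc1). The order of members within a library depends on these lengths. In CPM, Myog had 6.25 and Acta1 12.1 in AKR/J d15 replicate 2, and 4.41 and 4.38 in Cav1-null d12 replicate 3.

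The balance of embryonic to neonatal myosin was compared as the share of Myh3 in the reads of Myh3 and Myh8. It was 80.3% (95% exact Clopper-Pearson interval 77.6% to 82.9%) in AKR/J d15 replicate 2 and 60.6% (57.8% to 63.5%) in C57BL/6J d15 replicate 1. In Cav1-null d12 replicate 3 it was 54.8% (48.9% to 60.7%), and in Cav1-null d15 replicate 2 it was 69.3% (60.9% to 76.9%). The intervals cover counting error only, and with 1 high library a group the shares describe libraries and not strains or days. The share of AKR/J d15 replicate 2 lay above the intervals of the other 3. The shares include the Myh8 reads that the other libraries of each group also had.

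Other skeletal muscle genes were above the rest of the group in many cases, least often in Cav1-null d15 replicate 2. Of a list of 49 further muscle genes, 39 in AKR/J d15 replicate 2, 42 in C57BL/6J d15 replicate 1, 39 in Cav1-null d12 replicate 3 and 25 in Cav1-null d15 replicate 2 were higher than in both other libraries of the group, and 31, 26, 25 and 10 were over 2 times both. Of all genes at a mean of 1 CPM or more in the group, 4.80%, 1.61%, 6.61% and 0.408% were over 2 times both. Many of the 49 were below that level. The share of all genes that were merely highest in the group was not counted. The 5 further regulators and fusion proteins (Myf5, Myf6, Mymk, Mymx and Cdh15) summed to 7.202, 2.72, 3.91 and 2.37 CPM in the 4 libraries and to 0.504 to 3.44 CPM in the others, and in Cav1-null d15 replicate 2 they were not above the other libraries of the group (2.38 and 2.41 CPM). Mymk, the fusion protein myomaker, had 40, 22, 12 and 4 reads, or 1.36, 0.553, 0.355 and 0.138 CPM, and was at most 0.168 CPM elsewhere. The 28 further sarcomere genes summed to 135, 68.1, 67.9 and 60.7 CPM, as against 18.5 to 60.5 CPM in the others. The 16 genes of the endplate, calcium handling and energy supply summed to 92.3, 66.0, 58.8 and 83.2 CPM, all within the 21.4 to 103 CPM of the others, where Ryr1 alone, the calcium release channel of muscle that neurons also use, reached 81.3 CPM. Gene by gene, 13, 12, 12 and 8 of the 16 were above both other libraries of the group, and 11, 7, 8 and 2 were over 2 times both.

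Connective tissue and cartilage genes were high together with muscle genes in 3 of the 4 libraries. A list of 19 connective tissue and cartilage genes summed to 1953 CPM in AKR/J d15 replicate 2, to 5443 CPM in C57BL/6J d15 replicate 1 and to 1714 CPM in Cav1-null d12 replicate 3, and all 19 were above both other libraries of the group in each of these. The other 23 libraries had 115 to 1403 CPM. In Cav1-null d15 replicate 2 the same list summed to 271 CPM, 13 of 19 genes were above both others and 3 were over 2 times both, and Matn1, a matrix protein of cartilage, had 0 reads.

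Epidermis genes did not follow the same order. The 6 of them summed to 43.6 CPM in AKR/J d15 replicate 2, 29.5 CPM in Cav1-null d12 replicate 3 and 24.0 CPM in Cav1-null d15 replicate 2, but to 3.97 CPM in C57BL/6J d15 replicate 1, where none of the 6 was above both others. Elsewhere they summed to 0.862 to 29.99 CPM. The 12 heart genes summed to 17.4, 6.06, 16.2 and 6.29 CPM, as against 2.96 to 10.01 CPM in the others. Of the 12, 8, 7, 10 and 4 were above both other libraries of the group, and 4, 4, 6 and 2 were over 2 times both. All genes at a mean of 1 CPM or more had 4.80%, 1.61%, 6.61% and 0.408% over 2 times both. The atrial genes Myl7 and Nppa, picked after their values were seen, were at or below 0.355 CPM in all 4 libraries. The 7 smooth muscle genes summed to 35.9, 34.0, 62.7 and 13.9 CPM (8.76 to 50.4 CPM in the others), and the 4 cranial mesoderm regulators to 18.99, 14.7, 25.6 and 9.01 CPM (7.22 to 29.1 CPM). Placenta and decidua genes were at 0.544, 0.101, 2.81 and 0.550 CPM, yolk sac genes at 4.93, 1.21, 3.49 and 1.72 CPM, and erythroid genes at 3315, 990, 4530 and 3847 CPM, all within the range of the other libraries. The 12 brain genes summed to 4938, 7245, 5182 and 6559 CPM. The part of the neighbouring tissues in the muscle reads was not tested.

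**Figure D3:**
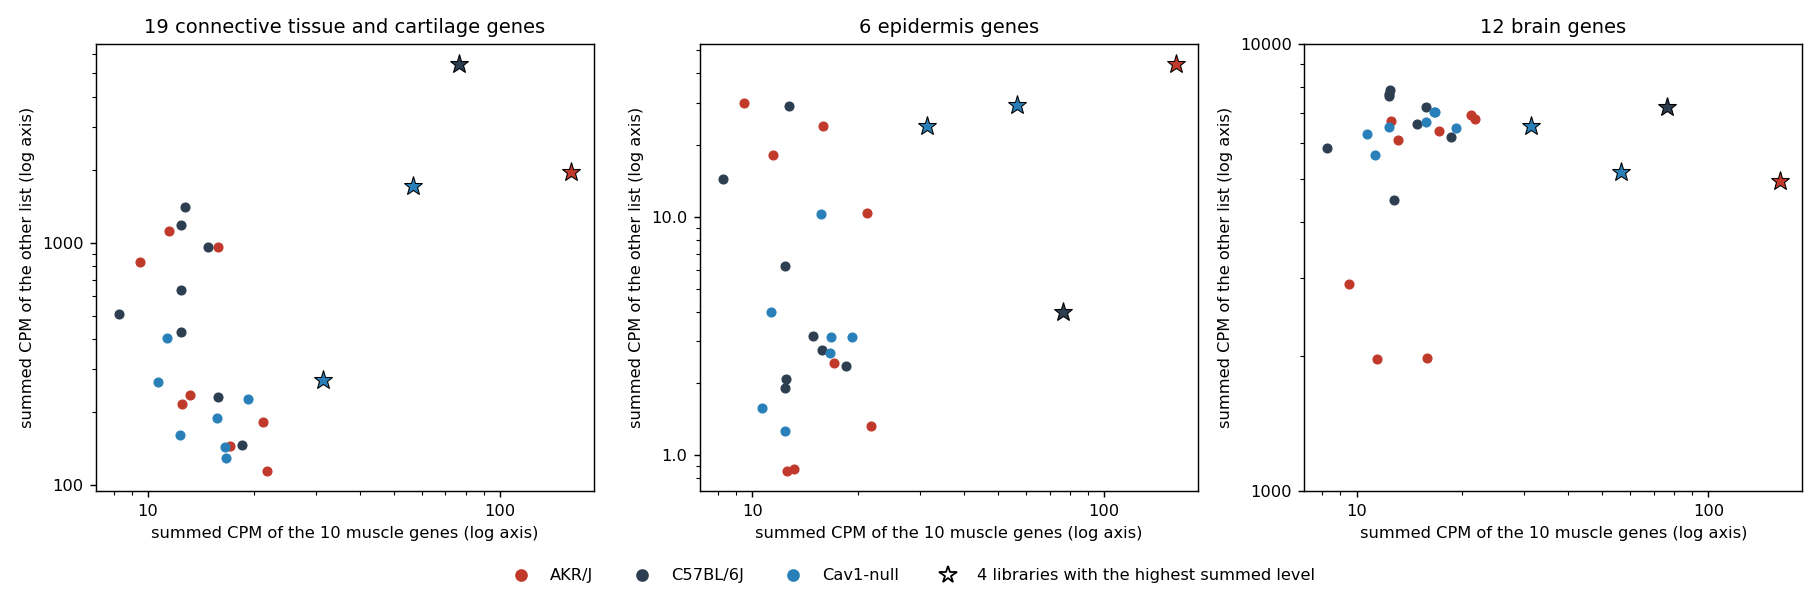
Summed CPM of 19 connective tissue and cartilage genes, 6 epidermis genes and 12 brain genes against the summed CPM of the 10 muscle genes (log axes), each point 1 library, with the 4 highest muscle libraries starred. Of the stars, 3 lie at 1714 to 5443 CPM of connective tissue genes and 1 at 271 CPM, and C57BL/6J d15 replicate 1 has 3.97 CPM of epidermis genes.

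The members were then tested by day within each strain and by strain on each day, with edgeR's quasi-likelihood test across all genes and Benjamini-Hochberg adjustment, called at an adjusted p under 0.05. Myh3, Myh8, Acta1, Tnnt3, Tnnc1, Ttn and Mylpf passed the count filter in all 12 comparisons, Actc1 in 9, and Myog and Myod1 in none, which gave 93 tests of members. Only 4 of the 93 were called, in 4 different comparisons. The standard errors of the 93 ran from 0.15 to 1.62 on the log2 scale.

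In the early phase, d15 against d12, 1 of 7 members tested was called in AKR/J, where 28.9% of all genes were called. This was Myh8, at 3.09 CPM ± 2.502 (SD, n = 3) on d15 and 0.163 ± 0.107 on d12, with a log2 fold change of 3.65 (SE 0.79, edgeR quasi-likelihood adjusted p = 0.0117). Without AKR/J d15 replicate 2 it was 2.80 (adjusted p = 0.0400), and it stayed called without each of the other 5 libraries. The AKR/J d12 libraries are those that stood apart, with erythroid genes at 35401 to 135959 CPM in sum on d12 and 2149 to 3315 CPM on d15, and brain genes at 1975 to 2908 CPM on d12 and 4938 to 6730 CPM on d15. On this contrast 8 of 9 erythroid, 5 of 5 yolk sac and 3 of 4 placenta and decidua genes tested were called lower, and of 12 brain genes 5 were called higher and 1 lower. Their part in the Myh8 difference, and in those of the further muscle genes below on the same contrast, was not tested. In C57BL/6J, 0 of 8 were called against a background of 14.9% (3 at an unadjusted p under 0.05, and 1 called by DESeq2), and in Cav1-null 0 of 8 against 23.4% (0 and 0). The members tested had median log2 fold changes of 2.08 for AKR/J, 1.54 for C57BL/6J and -0.61 for Cav1-null, where all genes had 0.02, -0.04 and -0.01.

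In the late phase, d17 against d15, 0 of 8 were called in AKR/J against 22.1% of all genes (2 at an unadjusted p under 0.05, and 0 by DESeq2), and 0 of 8 in C57BL/6J against 13% (2 and 1). In Cav1-null 1 of 8 was called against 27.3%. This was Mylpf, which fell from 3.63 CPM ± 2.76 (SD, n = 3) on d15 to 0.683 ± 0.0741 on d17, with a log2 fold change of -2.41 (SE 0.47, edgeR adjusted p = 0.00194). Its single values were 1.60, 6.77 and 2.51 CPM on d15 and 0.765, 0.665 and 0.620 CPM on d17, which did not overlap. Without the high Cav1-null d15 replicate 2 the fold change was -1.59 (adjusted p = 0.0118), and in 1 model of all 27 libraries it was not called (-2.41, adjusted p = 0.213).

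Between strains on d12, AKR/J against C57BL/6J called 1 of 7 members, against 28.6% of all genes. This was Tnnt3, at 3.25, 0.529 and 2.06 CPM in AKR/J and 0.346, 0.428 and 0.721 CPM in C57BL/6J, which overlapped. Its log2 fold change was 2.57 (SE 0.76, edgeR adjusted p = 0.0372). Tnnt3 was not called with a replicate block (2.14, edgeR adjusted p = 0.0562) or in 1 model of all 27 libraries (2.43, 0.0513). It was called without AKR/J d12 replicate 2 (3.07, adjusted p = 0.00515), and lost when any other of the 6 libraries was left out, with 1.89 (adjusted p = 0.140) without AKR/J d12 replicate 1, 2.49 (0.0956) without AKR/J d12 replicate 3, and 2.35 (0.114), 2.48 (0.135) and 2.85 (0.0535) without C57BL/6J d12 replicates 1, 2 and 3. AKR/J d12 replicate 1, the highest in Tnnt3, also had the most placenta and decidua reads (495 CPM) and yolk sac reads (1041 CPM). On this contrast 8 of 9 erythroid and 5 of 5 yolk sac genes tested were called higher in AKR/J, and 3 of 12 brain genes lower. Their part in the difference was not tested. On d15 AKR/J against C57BL/6J called 0 of 7 against 41.1% (0 at an unadjusted p under 0.05, and 0 by DESeq2), and on d17 0 of 8 against 0.742% (1 and 0).

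Cav1-null against C57BL/6J called 0 of 8 members on d12, where it called 0% of all genes, or 0 of 19475 (members 2 at an unadjusted p under 0.05 and 0 by DESeq2, all genes 4309 and 1756). On d15 it called 1 of 8 against 58.6% of all genes. This was Myh8 again, at 0.859 CPM ± 0.509 in Cav1-null and 6.06 ± 4.67 in C57BL/6J (SD, n = 3), a log2 fold change of -2.99 (SE 0.56, edgeR adjusted p = 0.000995). Without C57BL/6J d15 replicate 1 it was -2.15 (adjusted p = 0.000519). Of the connective tissue and cartilage list 11 of 18 genes tested were called on the same contrast, all 11 lower, beside the same 58.6% of all genes. On d17 it called 0 of 8 against 0.0491% (0 and 0). The early, late and strain comparisons share groups, so that their values are not independent of each other.

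A test of the interaction of strain and day over all 27 libraries called 0 of 9 members, Myog included, against 15.7% of all genes. Of the 9, Myh8 had an unadjusted p under 0.05 (edgeR adjusted p = 0.0669), and DESeq2's likelihood ratio test called 1, also Myh8 (adjusted p = 0.0163). With no filter on low counts edgeR called Myh8 as well (adjusted p = 0.00529).

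**Figure D4:**
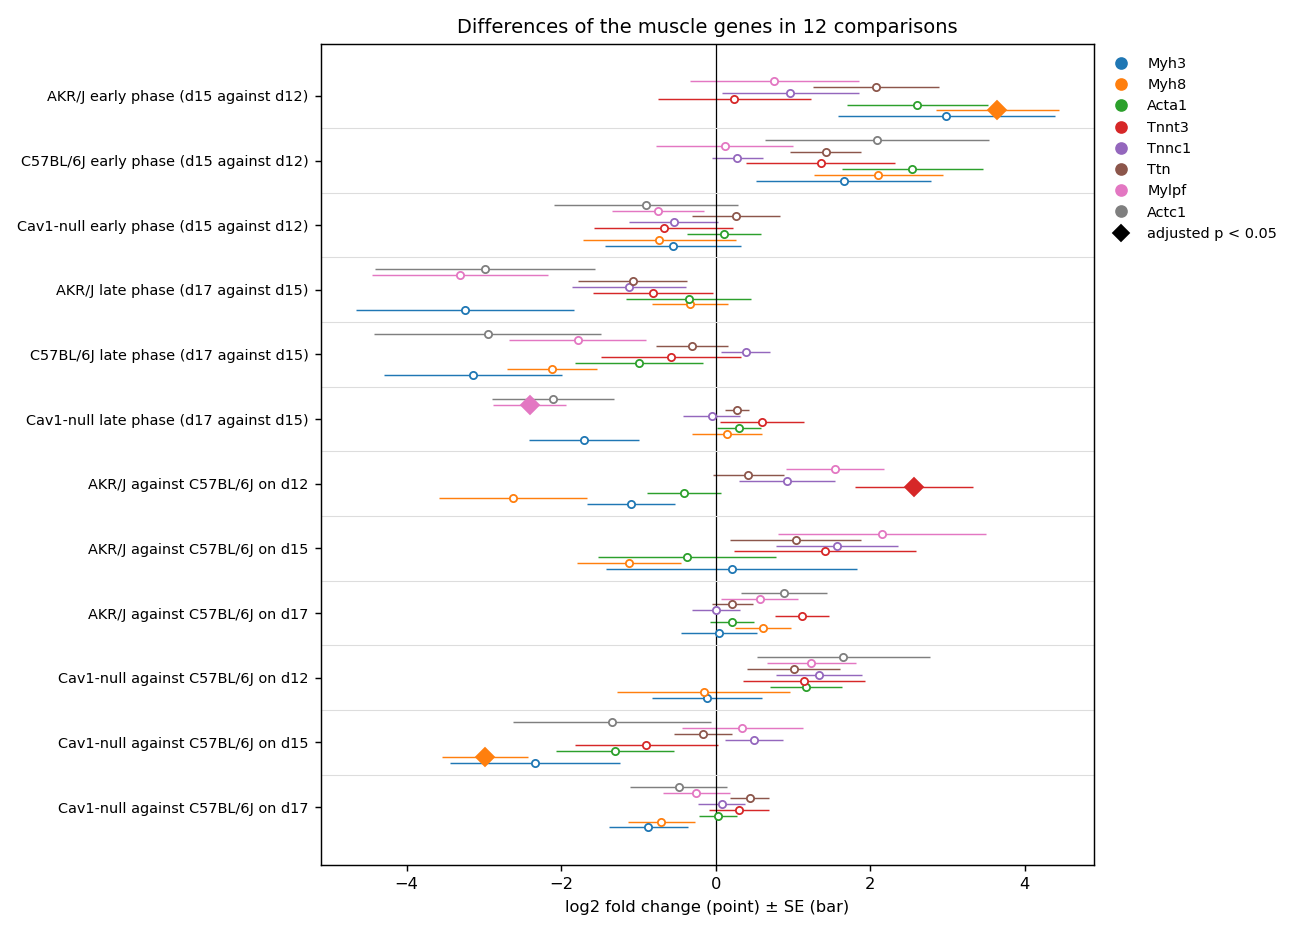
Log2 fold change (points) and standard error (bars) of the 7 or 8 members tested in each of 12 comparisons, from edgeR's quasi-likelihood fit. Filled diamonds mark the 4 with an adjusted p under 0.05, which are Myh8 at 3.65 and -2.99, Mylpf at -2.41 and Tnnt3 at 2.57.

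Of the 49 further muscle genes, between 25 and 31 were tested in each of the 12 comparisons and between 0 and 6 were called. In the early phase AKR/J called 6 of 26, all higher on d15, where 28.9% of all genes were called, with the largest change in Myh7, the slow myosin (2.51, adjusted p = 0.0125), Ldb3, a Z-disc protein (2.17, 0.0207), and Mybpc1, slow myosin-binding protein C (1.75, 0.0236). The Myh7 call was lost without AKR/J d15 replicate 1 or 3 (adjusted p 0.0569 and 0.0534). Ldb3 lost its call when any library but AKR/J d12 replicate 2 was left out (0.0532 to 0.0767), and Mybpc1 without AKR/J d12 replicates 1 or 2 or d15 replicates 2 or 3 (0.0519 to 0.0740). C57BL/6J called 2 of 29, both higher, against 14.9% of all genes, the fast myosin Myh2 (3.10, adjusted p = 0.0360) and the Z-disc actinin Actn2 (1.38, 0.0458), and both lost the call when C57BL/6J d12 replicate 1 or any d15 library was left out, Actn2 also without d12 replicate 3 (adjusted p 0.0695 to 0.138). Cav1-null called 4 of 27 against 23.4% of all genes, 3 of them higher, with Neb, the thin filament ruler nebulin (1.65, adjusted p = 0.00124), Actn2 (1.19, 0.0379) and Ryr1, and 1 lower, the slow troponin T Tnnt1 (-2.18, 0.0452). The call on Neb held without each library, and that on Actn2 was lost without any library but Cav1-null d12 replicate 3, and that on Tnnt1 without any but d12 replicates 2 and 3 (adjusted p up to 0.130 in both).

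In the late phase 1 of 30 was called in AKR/J (22.1% of all genes) and 1 of 30 in C57BL/6J (13% of all genes). This was Ryr1 in both, higher on d17 by 0.78 in AKR/J (adjusted p = 0.00547) and by 0.53 in C57BL/6J (adjusted p = 0.0341), and the C57BL/6J call was lost without any d15 library or without d17 replicate 3 (adjusted p 0.113 to 0.146). Cav1-null called 4 of 28 against 27.3% of all genes, 3 higher and 1 lower, with the largest changes in the acetylcholine receptor subunit Chrna1 (1.54, adjusted p = 0.0434), Mybpc1 (-0.96, 0.00608) and Actn2 (0.81, 0.00307). The Chrna1 call was lost without Cav1-null d15 replicates 1 or 3 or d17 replicates 1 or 3 (adjusted p 0.135 to 0.147). Between strains, AKR/J against C57BL/6J called 2 of 25, both lower, on d12 against 28.6% of all genes, the myofibril assembly protein Nrap (-1.65, adjusted p = 0.0494) and Ryr1 (-1.03, 0.0423), which lost the call when any library but AKR/J d12 replicate 2 was left out, or for Ryr1 any but that and C57BL/6J d12 replicate 3 (adjusted p up to 0.217). The lower brain and higher erythroid levels of AKR/J d12 moved with both. It called 0 of 31 on d15 and 0 of 30 on d17, as Cav1-null against C57BL/6J called 0 of 28 on d12 and 0 of 30 on d17, where all genes had the shares given above for the members. On d15 Cav1-null against C57BL/6J called 6 of 28 against 58.6% of all genes, 4 lower and 2 higher, with the largest changes in Myh2 (-2.53, adjusted p = 0.00256), Nrap (-1.34, 0.0121) and the fast actinin Actn3 (-1.11, 0.00606). The Nrap call was lost without C57BL/6J d15 replicate 1 (-0.85, adjusted p = 0.0712), and without both high libraries of d15 so was the Actn3 call (-0.94, 0.0537). All of these are edgeR quasi-likelihood log2 fold changes.

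Which members were called also depended on single libraries, all of the following being edgeR log2 fold changes with their adjusted p, from fits that called 12.2% to 53.7% of all genes. The 4 high libraries had been picked by the sum of these same members. A call made without 1 of them follows in part from that choice, and supports nothing. Myh8, the neonatal myosin, was called higher in the early phase of C57BL/6J without d12 replicate 2 (3.54, adjusted p = 0.0203), the library with 3.14 CPM, and in Cav1-null without the high d12 replicate 3 (1.80, 0.0455). In the same fit Ttn was called higher (1.42, 0.000269), where with all 6 libraries it was at 0.26 (0.778). Myh8 was called lower on d17 in C57BL/6J without d17 replicate 1 (-2.45, 0.0313), lower in AKR/J than in C57BL/6J on d15 without AKR/J d15 replicate 2 (-2.01, 0.0375), and in the interaction without C57BL/6J d12 replicate 2 (0.0267) or Cav1-null d12 replicate 1 (0.0491) or 2 (0.0286).
Of the thin filament genes, Tnnt3 was called higher in AKR/J than in C57BL/6J on d17 without C57BL/6J d17 replicate 2 (1.47, 0.0186), and Actc1 was called lower in the late phase of Cav1-null without d15 replicate 1 (-2.61, 0.0124) or 3 (-2.47, 0.0465). In the late phase of AKR/J Acta1 was called higher without d15 replicate 2 (1.60, 0.00915), and Mylpf was called lower without d15 replicate 1 (-3.80, 0.0477) or 3 (-3.83, 0.0303), and higher in AKR/J than in C57BL/6J on d12 without AKR/J d12 replicate 2 (1.93, 0.0396) or C57BL/6J d12 replicate 3 (2.17, 0.0434).
In Cav1-null against C57BL/6J on d15, Actc1 (2.67, 0.0409), Ttn (0.56, 0.0279) and Mylpf (2.17, 0.00519) were called higher in Cav1-null without the high C57BL/6J d15 replicate 1. With all 6 libraries their fold changes were -1.34, -0.16 and 0.35, none of them called, so that Actc1 and Ttn changed sign and Mylpf did not. The fit without C57BL/6J d15 replicate 1 kept the high Cav1-null d15 replicate 2. Without both, Mylpf was at 1.37 (0.0116), and Actc1 and Ttn were not called. Myh3 was called lower without C57BL/6J d15 replicate 2 (-2.79, 0.0394) or 3 (-2.86, 0.0394) or Cav1-null d15 replicate 2 (-3.69, 0.0439), as was Acta1 without C57BL/6J d15 replicate 2 (-1.72, 0.0493). On d17 Ttn was called higher in Cav1-null without C57BL/6J d17 replicate 2 (0.73, 0.0440), and from d15 to d17 in Cav1-null Tnnt3 was called higher (1.78, 0.0279) without d15 replicate 2 and Myh3 lower (-2.20, 0.0136) without d15 replicate 1.

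Levels by day outside the 4 libraries are a description, since those 4 were set apart by the members' own sum. Acta1 and Ttn were called in none of the 6 day comparisons by edgeR on the 6 libraries compared, with the filter on low counts. With no filter, Acta1 (2.66, adjusted p = 0.0116) and Ttn (2.13, 0.0122) were called higher in the early phase for AKR/J and Ttn (1.44, 0.0464) in that for C57BL/6J. In the same phase DESeq2's Wald test called Acta1 for AKR/J (2.59, adjusted p = 0.0037) and Ttn for C57BL/6J (1.45, 0.0059). The edgeR model of all 27 libraries called Acta1 (2.66, adjusted p = 0.0115) and Ttn (2.13, 0.0124) for AKR/J and Acta1 (2.58, 0.0270) for C57BL/6J. Acta1 was at 0.350 to 1.64 CPM in the 8 other libraries of d12, at 1.16 to 2.80 CPM in the 6 of d15 and at 2.39 to 4.63 CPM in the 9 of d17. The d12 and d17 values of these libraries did not overlap, in any strain, and d17 was not tested against d12. With Cav1-null d12 replicate 3, at 4.38 CPM, they did overlap, since Cav1-null had 2.41 to 3.69 CPM on d17. Ttn was at 1.18 to 3.88 CPM on d12, at 4.16 to 7.11 CPM on d15 and at 4.399 to 9.82 CPM on d17. Again d12 and the later days did not overlap in these libraries, while Cav1-null d12 replicate 3 had 13.6 CPM. The share of all genes without such overlap was not counted. The AKR/J d12 libraries are those with low brain and high erythroid levels, and their part was not tested.

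Mylpf was at 1.26 to 8.04 CPM in the 8 other libraries of d12, 0.699 to 2.51 CPM in the 6 of d15 and 0.505 to 1.94 CPM in the 9 of d17.

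The splice junction table separated Mylpf reads by where they start. It listed 11 junctions in 5 of the 10 genes (5 in Mylpf, 2 each in Myh8 and Tnnt3, 1 each in Acta1 and Tnnc1) and none in Myog, Myod1, Myh3, Actc1 and Ttn. Junctions with few reads and multi-mapped reads had been removed by the authors, so that an unlisted junction may still have had reads. All 11 are in the GENCODE M39 gene models.

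Joins from the exon nearest to the shared exon, the RefSeq start shown above, took 194 of 201 reads (96.5%, exact interval 93.0% to 98.6%) in AKR/J d15 replicate 2 and 52 of 54 (96.3%, 87.3% to 99.5%) in C57BL/6J d15 replicate 1. They took 49 of 62 (79.0%, 66.8% to 88.3%) in Cav1-null d12 replicate 3 and 23 of 27 (85.2%, 66.3% to 95.8%) in Cav1-null d15 replicate 2. The 4 libraries thus had most of their Mylpf joins at the RefSeq start.

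In the AKR/J d12 libraries the same share was 23.5% (8 of 34), 39.1% (9 of 23) and 27.5% (14 of 51), so that most joins came from the 2 exons farther upstream. In Cav1-null d12 replicates 1 and 2 it was 42.1% (8 of 19) and 14.8% (4 of 27), and in C57BL/6J d12 it was 0% (0 of 4), 53.8% (7 of 13) and 26.3% (5 of 19). In 7 of these 8 libraries of d12 most joins came from other exons than the RefSeq start, the exception being C57BL/6J d12 replicate 2. Over the 23 libraries the upstream joins had 135 reads in 8 libraries of d12, 27 in 6 of d15 and 30 in 9 of d17, and the joins from the nearest exon had 55, 20 and 16. On d15 and d17 these libraries had 2 to 14 joins each, too few to order them by share. The AKR/J d12 libraries also had the most erythroid reads of the series, and their part in the upstream Mylpf joins was not tested.

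**Figure D5:**
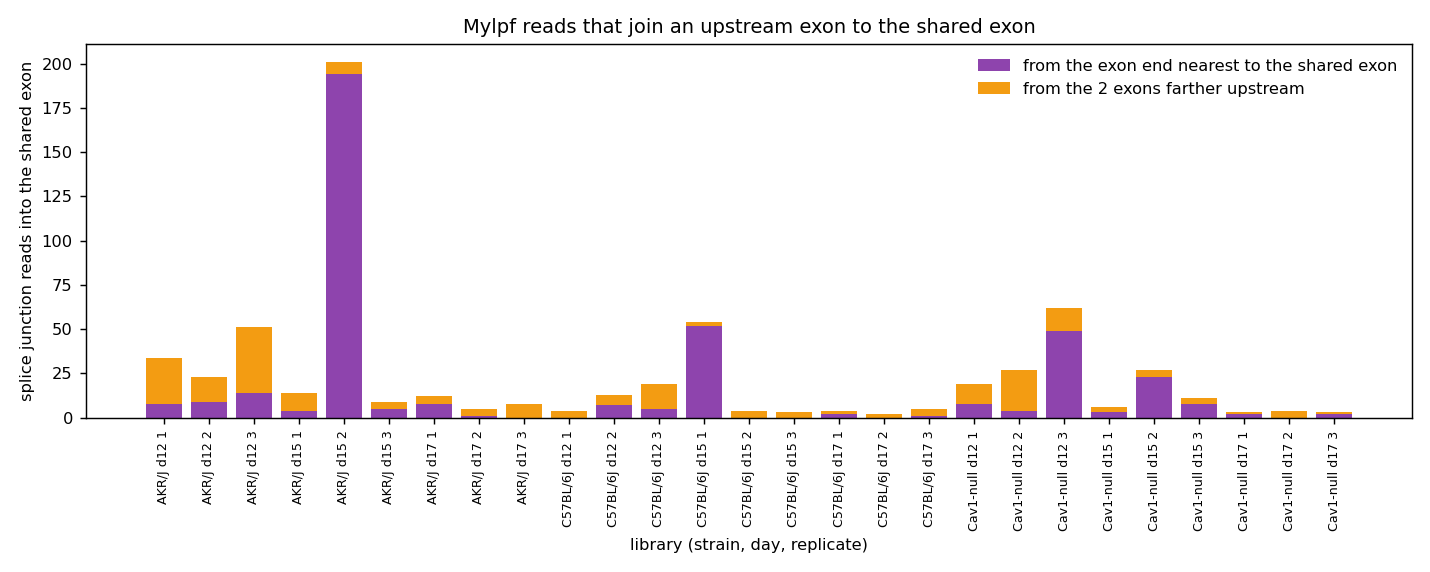
Mylpf junction reads into the shared exon in each of the 27 libraries, stacked by the exon they come from. Reads from the nearest exon make up 194 of 201 in AKR/J d15 replicate 2, and reads from the 2 exons farther upstream make up 37 of 51 in AKR/J d12 replicate 3.

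The junctions outside Mylpf had between 28 and 211 reads each over the 27 libraries. The Acta1 junction chr8:124620449-124621430 had 32 reads in AKR/J d15 replicate 2, 4 in Cav1-null d12 replicate 3, 2 in Cav1-null d15 replicate 2 and 2 in AKR/J d17 replicate 1. It had 0 reads in the other 23 libraries, C57BL/6J d15 replicate 1 among them, although that library had 554 Acta1 reads, the most of all. The junction in Tnnc1, chr14:30932636-30933236, had 58, 10, 27 and 9 reads in the 4 libraries and 0 to 11 in each of the others. The Tnnt3 junction chr7:142052637-142055356 had reads in 6 libraries, 15, 7 and 4 in AKR/J d15 replicate 2, C57BL/6J d15 replicate 1 and Cav1-null d12 replicate 3, and 15, 3 and 1 in AKR/J d12 replicates 1 and 2 and Cav1-null d17 replicate 1. The other Tnnt3 junction, chr7:142066360-142068062, had 169 reads in 22 libraries, of which 50 reads were in the 4. The Myh8 junctions chr11:67180663-67180768 and chr11:67185439-67187917 had 10 and 15 reads in C57BL/6J d15 replicate 1, 3 and 3 in replicate 2 and 5 and 1 in replicate 3 of that group.

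The genes whose levels ran most like the summed muscle level were sought among 16433 other genes, by Pearson correlation of log2(CPM + 0.5) over the 27 libraries. These correlations are a description, and the 4 high libraries weigh on them through the muscle sum itself. The 10 highest were Myl4 (0.92), Agtr2 (0.91), Aspn (0.88), Myl1 (0.86), Scn7a (0.83), Matn1, Sema3d, Pirt, Ltbp2 and C1qtnf7 (0.80 to 0.81). Myl4 and Myl1 encode myosin light chains of embryonic and fast muscle, Agtr2 an angiotensin receptor, Aspn an extracellular matrix protein and Matn1 the cartilage protein matrilin-1.

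Myl1 was at 13.8, 3.97, 4.79 and 2.06 CPM in the 4 libraries and at most 1.06 CPM elsewhere, and its correlation without them was 0.02. Agtr2 was at 49.3, 6.14, 17.8 and 10.2 CPM, with 0.895 to 4.48 CPM elsewhere, and its correlation without them was 0.70. Matn1 was at 33.5 and 30.7 CPM in the high d15 libraries of AKR/J and C57BL/6J, at 5.21 CPM in Cav1-null d12 replicate 3 and at 0 in Cav1-null d15 replicate 2, and its correlation without the 4 was -0.11. Like Matn1, the other genes of the 10 were not all high in Cav1-null d15 replicate 2, where Scn7a was at 1.03 CPM and Pirt at 0.550 CPM, within the 0.189 to 2.39 CPM and 0 to 2.12 CPM of the other libraries.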

How the data were processed

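RNA of whole fetal brain was sequenced in 27 libraries. The authors trimmed reads with cutadapt and fastp, checked them with FastQC and mapped them to GRCm39 with STAR, and the deposited tables hold raw read counts per Ensembl gene and reads per splice junction, the latter after multi-sample mapping in repeated passes and removal of multi-mapped reads and of junctions with few reads. The counting tool, its treatment of strand and of read pairs, and the versions are not given in the sources used here. Each library's group is the strain and day that its labels give. The 10 members, the lists of other genes and the tests were chosen with earlier results of these data known.

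Each comparison was fitted on its 6 libraries across all genes with edgeR 4.0.16 in R 4.3.3 (filterByExpr, TMM, quasi-likelihood test, Benjamini-Hochberg adjustment, called at an adjusted p under 0.05). Standard errors were taken as the size of the log2 fold change divided by the root of its F statistic. CPM was computed on all reads counted on genes, 26363697 to 39759702 per library, without TMM. The exact intervals and the limit of 3 reads for a count of 0 cover counting error only. The fits were tested on simulated data with 200 genes changed, of which 61.5% (early phase of AKR/J, 19935 genes) to 92% (late phase of Cav1-null, 20245 genes) were recovered. Sequences came from GRCm39 and from RefSeq promoters (GRCm38.p6), each of which matched GRCm39 at 1 place. Tables were processed in Python with pandas.

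Named genes were all 10 members, up to 3 called genes of the further muscle lists with the largest change in each comparison, and the 10 genes most like the summed level with a mean of at least 1 CPM. Genes of other tissues (Matn1, Myl7, Nppa), Mymk, Ryr1 beside the energy and calcium list, and Tnnc2 were named after their values were seen. The alternatives were RLE size factors, DESeq2 1.42.0 (Wald test, likelihood ratio test for the interaction), no filter on low counts, 1 model of all 27 libraries, a replicate block, each library left out, for the summed level TMM-scaled library sizes or leaving out Actc1, Tnnc1 and Ttn, and, chosen after seeing the data, the 4 high muscle libraries left out.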

Additional observations from a re-analysis of the deposited data

Results flagged for a closer look

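Of 40 further muscle genes tested, 2 had a change over days that differed between strains by the interaction of strain and day over all 27 libraries (edgeR quasi-likelihood test, Benjamini-Hochberg adjusted), a smaller share than the 15.7% of all genes. Ryr1 had an adjusted p of 0.0122. On d12 it was at 7.78, 20.8 and 6.54 CPM in AKR/J, 34.8, 30.9 and 22.7 CPM in C57BL/6J and 28.3, 22.2 and 27.8 CPM in Cav1-null. On d15 it was at 54.5, 46.7 and 36.04 CPM, 41.8, 43.1 and 41.7 CPM, and 61.7, 59.1 and 54.7 CPM in the same order of strains, and on d17 at 75.4 to 76.7, 56.4 to 81.3 and 63.8 to 78.3 CPM. The AKR/J d12 libraries, all below the others in Ryr1, also had the lowest sums of brain genes (1975 to 2908 CPM, as against 4487 CPM or more in all other libraries) and the highest of erythroid genes (35401 to 135959 CPM), and the part of these in the interaction was not tested. The Ryr1 interaction was lost without AKR/J d12 replicate 1 (adjusted p = 0.0669), without AKR/J d12 replicate 3 (0.0530) and without the 4 high muscle libraries (0.0698). Nrap had an adjusted p of 0.0148, with 0.308, 0.670 and 0.175 CPM on d12 and 1.82, 1.73 and 1.09 CPM on d15 in AKR/J, and 1.23, 2.06 and 1.28 CPM on d12 and 2.67, 1.06 and 1.32 CPM on d15 in C57BL/6J. In Cav1-null it was at 0.357, 0.819 and 1.27 CPM on d12 and 0.670, 0.894 and 0.682 CPM on d15. On d17 Nrap was at 0.796 to 1.01 CPM in AKR/J, 0.438 to 0.835 CPM in C57BL/6J and 1.04 to 1.45 CPM in Cav1-null. Of the 9 members tested, 0 were called by this test, and Myh8 was called with no filter on low counts (adjusted p = 0.00529).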

How the results depend on the processing

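The number of members called moved with the settings. DESeq2 called 2 of 7 members with an adjusted p for AKR/J early, 1 of 9 and 1 of 7 in the early and late phase of C57BL/6J, 2 of 10 in the late phase of Cav1-null, 3 of 10 in AKR/J against C57BL/6J on d12 and 1 of 10 in the interaction, and in these fits 4106 to 6768 of 34319 to 42111 genes. With no filter on low counts, where all 10 members were tested, the calls were 6, 1, 3, 2 and 3 for AKR/J early, C57BL/6J early, AKR/J late, C57BL/6J late and Cav1-null late (16.4%, 8.71%, 12.7%, 8.33% and 16.6% of all genes), 3 in AKR/J against C57BL/6J on d12 (18.2%), 3 in Cav1-null against C57BL/6J on d15 (32.7%) and 1 in the interaction (8.32%). With all 27 libraries in 1 model, which tested 9 members and called 829 to 9568 of 23307 genes, they were 4, 1, 1 and 0 in the early phases of AKR/J and C57BL/6J and the late phases of AKR/J and Cav1-null. RLE size factors gave 1 of 8 in the late phase of C57BL/6J (2648 of 19888 genes). Without the high libraries, 2 of 8 members were called in the early phase of Cav1-null (6117 of 19996 genes), and on d15 2 of 7 in AKR/J (6731 of 19757 genes) and 2 of 7 in Cav1-null (9988 of 20095 genes) against C57BL/6J. Those libraries were chosen after seeing the data, by the sum of the members themselves, so that these counts support nothing. The cause of these changes was not tested.

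Leaving out each library in turn gave 1 to 1, 0 to 1 and 0 to 2 calls for AKR/J, C57BL/6J and then Cav1-null in the early phase, and 0 to 1, 0 to 1 and 1 to 3 in the late phases. These fits called 12.4% to 43.5%, 0% to 29.8% and 11.2% to 35.9% of all genes in the early phases, and 7.58% to 23.3%, 0.767% to 33.2% and 18.9% to 25.5% in the late phases. It gave 0 to 2, 0 to 1 and 0 to 1 in AKR/J against C57BL/6J on d12, d15 and d17, 0 to 0, 1 to 4 and 0 to 1 in Cav1-null against C57BL/6J, and 0 to 1 in the interaction. Of all genes these called 0.122% to 39.9%, 28.2% to 37.9% and 0.258% to 26.4%, then 0% to 7.37%, 49.8% to 53.7% and 0.00946% to 13.6%, and 6.59% to 26.7% in the interaction. The log2 fold changes ran from 2.80 to 4.34 for Myh8 in the early phase of AKR/J, from -2.76 to -1.59 for Mylpf in the late phase of Cav1-null, from 1.89 to 3.07 for Tnnt3 and from -3.57 to -2.15 for Myh8 in Cav1-null against C57BL/6J. The mean summed level ran from 10.5 to 13.7, 12.8 to 86.4 and 19.2 to 21.5 CPM in AKR/J on d12, d15 and d17, from 10.5 to 13.8, 12.4 to 44.4 and 14.1 to 17.2 CPM in C57BL/6J, and from 10.996 to 33.9, 14.05 to 23.5 and 16.6 to 17.9 CPM in Cav1-null.

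TMM-scaled library sizes moved the mean summed level to 16.5 CPM in AKR/J d12 and 16.0 CPM in Cav1-null d17. Without Actc1, Tnnc1 and Ttn, which heart also expresses, it was 8.33 and 10.2 CPM in AKR/J d12 and d17, 7.70 and 7.24 CPM in C57BL/6J d12 and d17, and 9.66 and 6.72 CPM in Cav1-null d15 and d17, lower by construction. Of the 4 calls, Tnnt3 was lost with the replicate block (2.14, adjusted p = 0.0562) and in 1 model of all libraries (2.43, 0.0513). In the same comparison the replicate block called Mylpf higher in AKR/J (1.44, 0.0277) and the 1 model called Myh8 lower (-2.81, 0.0281). The Mylpf call in the late phase of Cav1-null was lost in the 1 model (adjusted p = 0.213). The replicate block also gave 1 call in the late phase of C57BL/6J, Myh8 (-1.98, 0.0214). Same-numbered samples did not pair, since 0 of 12 comparisons had all 3 correlations over 0.1 (-0.232 to 0.186). At these depths counts of Myog and Myod1 outside the 4 libraries were too low to order groups.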

Other observations

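Tnnc2, the fast troponin C, had 0 reads in all 4 high muscle libraries and at most 0.126 CPM in the others, while the fast partners Tnnt3 and Mylpf were at 1.58 to 9.04 CPM and 6.14 to 33.9 CPM in the 4. Nisch, which holds Tnnc1 on the opposite strand, was at 256 to 833 CPM over the 27 libraries and highest in C57BL/6J d15 replicate 1, the high library where Tnnc1 was at 1.01 CPM. Septin1, which overlaps the end of Mylpf, was at 9.05 to 13.7 CPM in the 4 libraries and at 4.33 to 23.1 CPM in the others.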
